A study of Mus musculus with 12 samples.

Results

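The genes described here are 61 of the 7318 listed by the authors: chaperones and folding enzymes of the endoplasmic reticulum (ER), the signal recognition particle, the translocon, signal peptidase, oligosaccharyltransferase, and the coats and cargo receptors that carry vesicles between the ER and the Golgi. They were taken by symbol and not by their values, but with earlier results of these data known. All 61 are protein-coding in the annotation, lie on 19 chromosomes, and fall into 10 role classes plus Ssrp1, which the symbol prefix Ssr catches by its letters and which encodes a subunit of the histone chaperone FACT. The AP20187 animals were FVB/N females 4 weeks old with genotype MMTV-Wnt1 / MMTV-iFgfr1 that received the compound intraperitoneally, and the controls were females of the same age, strain and genotype that received vehicle. Both groups therefore carry both transgenes, and no group without them was analysed here. The MMTV promoter is a viral promoter active mainly in mammary epithelium, and iFGFR1 is an FGF receptor 1 that signals when AP20187 brings its copies together, so the labelled contrast is 6 h of receptor activation on a Wnt1 background. Mammary glands were collected in cycloheximide, which stalls ribosomes, at 100 µg/ml, digested with collagenase at 1 mg/ml for 2 h at 37 °C, and enriched for epithelial cells by short spins. Each cell pellet gave an RNA library and a library of ribosome-protected fragments (footprints), with 3 libraries per assay and group and 12 in all.

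Proteins bound for secretion, for membranes or for the ER itself are recognised by the signal recognition particle as their signal sequence leaves the ribosome, are threaded through the Sec61 translocon, and have the signal cut off and glycans added on the way in. Inside the ER, chaperones of the Hsp70 and Hsp90 families, lectin chaperones and disulfide isomerases fold them, COPII vesicles carry them towards the Golgi, and COPI vesicles return escaped residents. The unfolded protein response, through the transcription factors ATF6 and XBP1, is known to induce many of the lumenal chaperones, and mammary epithelium builds up this machinery ahead of milk secretion.

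RNA libraries held between 94513818 and 251874393 counts over the listed genes, and footprint libraries between 1772969 and 11018709. Correlations of log2 values between libraries of a group ranged between 0.958 and 0.987 for RNA and between 0.851 and 0.96 for footprints, so a footprint value is the less certain of the pair. Levels are given as CPM, counts scaled to library size after TMM scaling. Changes are log2 fold changes of AP20187 over vehicle with their standard error (SE) and Benjamini-Hochberg adjusted p of edgeR's quasi-likelihood test over all genes, and a gene was called at an adjusted p under 0.05. A count of 3 corresponds to between 0.0121 and 0.0322 CPM in the RNA libraries and between 0.282 and 1.64 CPM in the footprint libraries.

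Marker genes of several cell types differed between the groups. Of 7 listed luminal epithelial markers, 6 were called higher and 1, Krt19, lower in RNA, and their summed level lay between 6966 and 9356 CPM in AP20187 libraries, against 4102 to 5115 CPM in vehicle libraries. Of 8 basal markers, 1 was higher and 4 were lower, with sums of 2714 to 4150 CPM against 4867 to 5638 CPM. All of the stromal sums were lower with AP20187: 1252 to 1702 CPM against 3347 to 5827 CPM for 6 fibroblast markers (5 called lower), 286.2 to 326.8 CPM against 531.3 to 716.9 CPM for 4 endothelial markers (4 lower), 48.1 to 104 CPM against 263 to 502 CPM for 5 adipocyte markers (3 lower), and 81.1 to 158 CPM against 243 to 406 CPM for 5 Schwann cell markers (4 lower). The 2 macrophage markers did not move together: Cd14 averaged 1242 CPM against 464 CPM and was called higher, and Cd68 averaged 17.4 CPM against 23.1 CPM and was not called. Their sum was 1065 to 1370 CPM against 284 to 759 CPM. The single plasma cell marker Prdm1 was at 35.8 to 47.0 CPM against 40.5 to 71.4 CPM, and the single T cell list member Ptprc at 21.7 to 39.8 CPM against 28.0 to 82.8 CPM. None of these markers was at 0 in any RNA library. In bulk samples, fewer cells of a type and less RNA per cell cannot be told apart, and the part of these markers' cell types in the changes below was not tested.

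In RNA, 25 of the 61 members were called higher with AP20187 and 1, Sec24a, was called lower, while 35 were not called. Among all 7314 genes tested, 12.4% were called higher and 13.9% lower. Without vehicle library 1 the counts were 13 higher and 0 lower (4.2% of all tested genes higher), and without vehicle library 3 they were 12 and 0 (3.38% higher). The members' median log2 fold change was 0.34 (range -0.91 to 2.15), against 0.01 for all tested genes, and 52 of 61 estimates were positive. At an unadjusted p under 0.05 there were 35 members, against 40.9% of all tested genes. For 35 members every AP20187 library lay above every vehicle library, an ordering found in 21.9% of all tested genes, for 4 every AP20187 library lay below (23.1% of all tested genes), and for 22 the groups overlapped. By role, called higher were 7 of 8 lumenal chaperones (median 1.21), 4 of 5 disulfide isomerases (0.93), 3 of 3 oligosaccharyltransferase subunits (0.84), 2 of 3 signal peptidase subunits (0.71), 3 of 8 translocon and TRAP genes (0.55), 1 of 2 lectin chaperones (0.39), 3 of 9 p24 cargo receptors (0.31), 1 of 6 signal recognition particle genes (0.30), 1 of 7 COPI genes (0.11) and 0 of 9 COPII genes (0.18). The shares called higher among COPI genes (14.3%) and signal recognition particle genes (16.7%) were near the 12.4% of all tested genes. The difference between role classes was not itself tested.

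**Figure D1:**
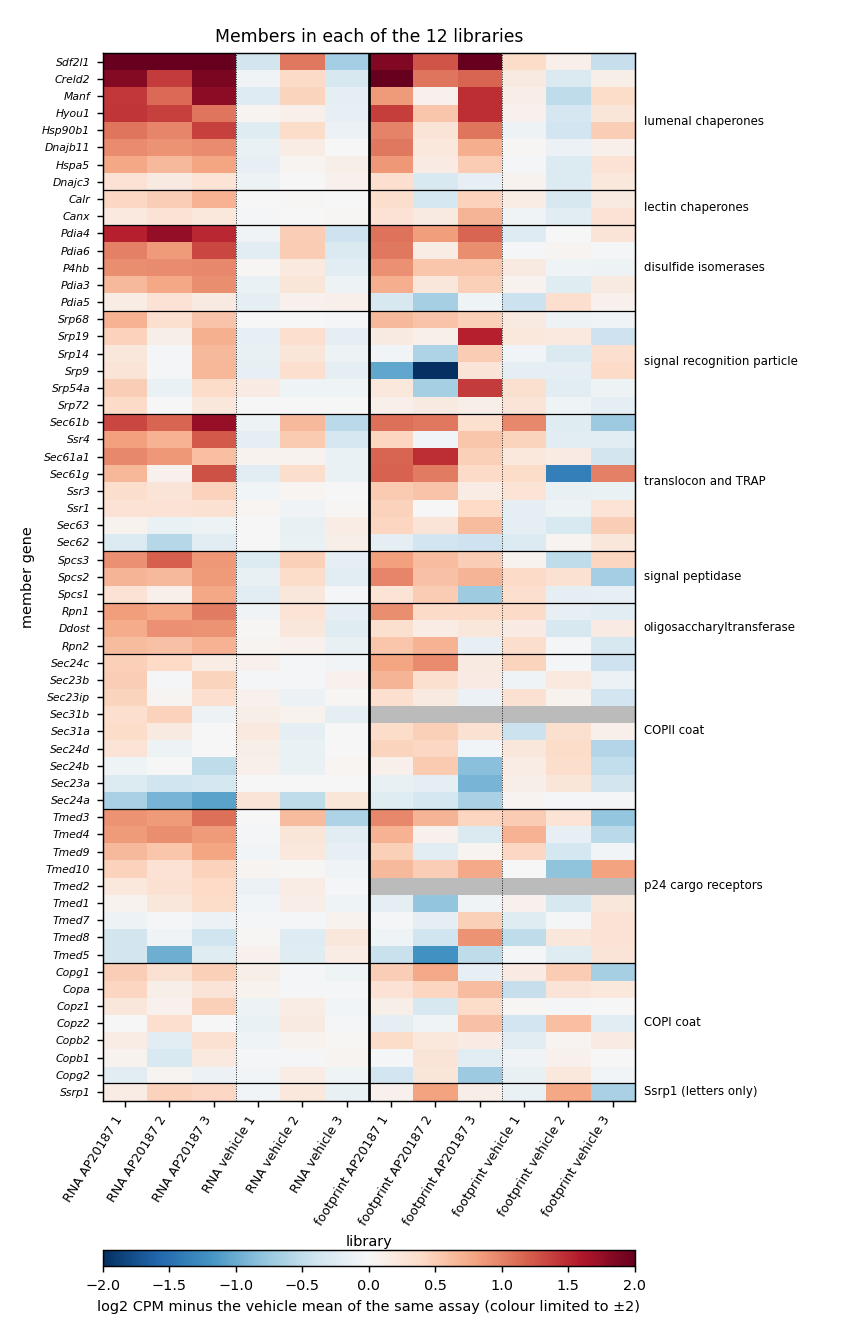
Each row is a member gene, grouped by role, and each column 1 of the 12 libraries, AP20187 left of vehicle within RNA and within footprints; colour is log2 CPM minus the vehicle mean of the same assay, limited to 2 either way, and grey marks the members filtered out of the footprint fit. Lumenal chaperones, with RNA class medians of 1.24, 1.05 and 1.22 in the AP20187 libraries against -0.15, 0.25 and -0.14 in the vehicle libraries, form the darkest block, while most COPII and COPI rows stay pale, Sec24a excepted.

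Sdf2l1 had the largest RNA fold change of all members. It encodes a lumenal protein that works with BiP and its J-domain partners, and lies at chromosome 16, 17130138 to 17132383, minus strand. In RNA, Sdf2l1 had 46.8, 48.7 and 56.5 CPM with AP20187 and 7.63, 20.4 and 6.17 CPM with vehicle. The increase was 2.15 ± 0.42 (adjusted p = 0.0119), and vehicle library 2 stood above the other vehicle libraries. Footprints of Sdf2l1 stood at 203, 133 and 255 CPM in AP20187 glands and at 71.7, 60.0 and 40.3 CPM in vehicle glands. Sdf2l1 was 1 of 2 members called higher in footprints, by 1.79 ± 0.32 (adjusted p = 0.0237, and 0.00118 with the replicate number as a block). Blocked values, here and below, assume that footprint libraries pair by number, which was inferred from these data and is not in the labels.

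Creld2, an ER-stress-inducible protein with disulfide isomerase activity at chromosome 15, 88819646 to 88826683, plus strand, was the other member called in both assays. Creld2 RNA was at 158, 116 and 162 CPM in the AP20187 libraries, against 42.2, 57.4 and 35.4 CPM in the vehicle libraries. The difference was 1.69 ± 0.21 (adjusted p = 0.0059). In footprints, Creld2 had 222, 112 and 121 CPM with AP20187 and 60.2, 43.6 and 57.6 CPM with vehicle. No library of one group reached the other, and the rise was 1.49 ± 0.32 (adjusted p = 0.0387; blocked, 0.00157). Both footprint calls were lost without vehicle library 1, 2 or 3 or without AP20187 library 1, with adjusted p between 0.0996 and 0.179 for Creld2 and between 0.0566 and 0.105 for Sdf2l1. In each of those fits, at most 0.0425% of all tested genes were called higher. Both RNA calls were held in every fit that left out a library.

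Manf, a secreted and ER-resident protein that protects cells under ER stress (chromosome 9, 106838312 to 106891979, minus strand), followed the same order in RNA. RNA of Manf stood at 260.3, 214 and 336 CPM in AP20187 glands and at 81.9, 134 and 85.2 CPM in vehicle glands. Its RNA rose by 1.43 ± 0.24 (adjusted p = 0.00803). Manf footprints were at 669, 394 and 1035 CPM in the AP20187 libraries, against 409, 261 and 480.5 CPM in the vehicle libraries. AP20187 library 2 lay below the highest 2 vehicle libraries, and the difference was 0.87 ± 0.37 (adjusted p = 0.27; blocked, 0.0243, a call). Hyou1, an Hsp70 relative that serves BiP as nucleotide exchange factor (chromosome 9, 44379490 to 44392369, plus strand), was separated in both assays. In RNA, Hyou1 had 524, 506 and 409.9 CPM with AP20187 and 203, 210.1 and 175 CPM with vehicle. The RNA rise was 1.29 ± 0.15 (adjusted p = 0.0059). Footprints of Hyou1 stood at 725, 407 and 771 CPM in AP20187 glands and at 296, 221 and 329 CPM in vehicle glands. The footprint difference of 1.17 ± 0.31 missed the threshold (adjusted p = 0.0783) and passed it with the block (0.00327).

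Hsp90b1, which encodes GRP94, the Hsp90 of the ER (chromosome 10, 86690209 to 86705509, minus strand), was among the most abundant members. Hsp90b1 RNA was at 2157, 2021 and 2650.0 CPM in the AP20187 libraries, against 871, 1326 and 949.7 CPM in the vehicle libraries. Its RNA rose by 1.12 ± 0.21 (adjusted p = 0.0106). In footprints, Hsp90b1 had 2689, 1609 and 2833 CPM with AP20187 and 1254, 1037 and 1902 CPM with vehicle. AP20187 library 2 fell among the vehicle libraries, and the difference was 0.77 ± 0.33 (adjusted p = 0.27; blocked, 0.0351, a call). Dnajb11, a J-domain co-chaperone of BiP (chromosome 16, 22857845 to 22879634, plus strand), showed little spread in RNA. RNA of Dnajb11 stood at 156, 151 and 155 CPM in AP20187 glands and at 73.8, 89.3 and 80.2 CPM in vehicle glands. The rise was 0.92 ± 0.12 (adjusted p = 0.00626). Dnajb11 footprints were at 206, 114 and 164 CPM in the AP20187 libraries, against 99.6, 90.5 and 106 CPM in the vehicle libraries. These groups also did not overlap, and the difference was 0.71 ± 0.27 (adjusted p = 0.213; blocked, 0.0633, no call).

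Hspa5 encodes BiP, the Hsp70 of the ER lumen and the member with the most reads (chromosome 2, 34771970 to 34777547, plus strand). In RNA, Hspa5 had 4357, 3969 and 4368 CPM with AP20187 and 2263, 2627 and 2741 CPM with vehicle. The RNA rise of 0.73 ± 0.17 passed the test (adjusted p = 0.018) but not without vehicle library 1 (0.0904), vehicle library 3 (0.0556) or AP20187 library 1 (0.069). Footprints of Hspa5 stood at 6261, 3834 and 4907 CPM in AP20187 glands and at 3392, 2853 and 4191 CPM in vehicle glands. The footprint groups overlapped through AP20187 library 2, with a difference of 0.52 ± 0.29 (adjusted p = 0.411; blocked, 0.16). Dnajc3, a J-domain co-chaperone that also inhibits the kinase PERK, was the 1 lumenal chaperone not called in RNA: its AP20187 libraries all lay above the vehicle libraries, at 223 to 242 CPM against 185 to 210 CPM, with 0.24 ± 0.12 (adjusted p = 0.156).

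**Figure D2:**
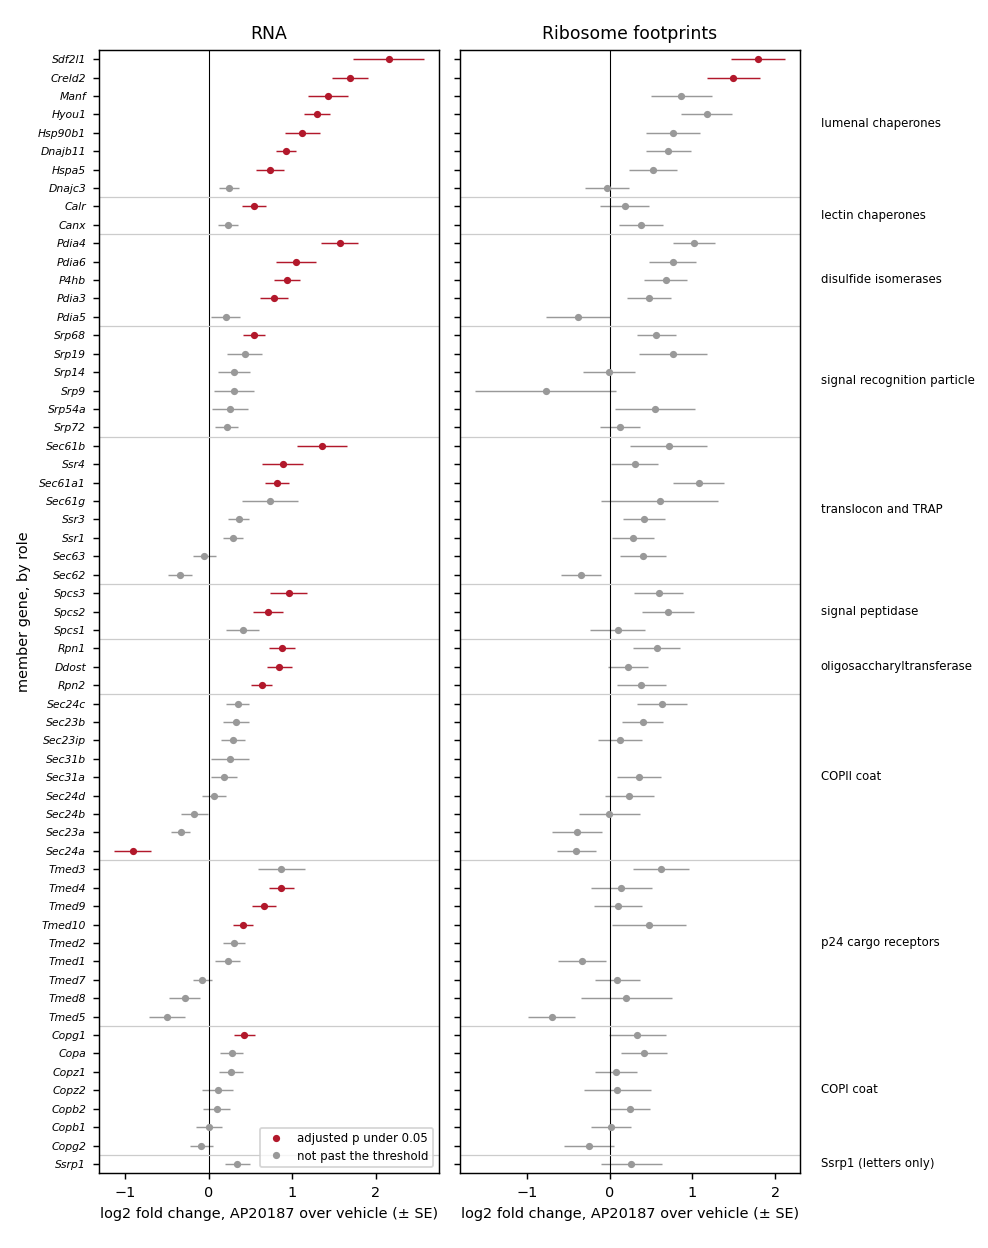
The log2 fold change of AP20187 over vehicle (x axis) is plotted for each member, by role, in RNA (left panel) and footprints (right panel); bars are 1 SE, red points passed an adjusted p of 0.05, and Tmed2 and Sec31b have no footprint point. Red points crowd the chaperone, isomerase and oligosaccharyltransferase rows of the RNA panel, Sec24a at -0.91 is the red point left of 0, and Sdf2l1 at 1.79 and Creld2 at 1.49 are the red points of the footprint panel.

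The promoters of several of these genes are known targets of ATF6 and XBP1 through the ER stress response element, so the RefSeq promoter windows of build GRCm38.p6, 250 bases before to 50 after each start, were searched for its letters on both strands. The pattern is a CCAAT box, any 9 bases and a CCACG box. A window was available for 53 members, 20 of them among the 25 called higher in RNA. The other 8 members had no window and were not searched. The pattern occurred in 39 of all 32851 windows (0.119%) and in 11 of the 7277 windows of listed genes (0.151%). Of the 58 windows that the 53 members have, 7 held it. The 7 genes are Calr, Canx, Creld2, Dnajc3, Hsp90b1, Hspa5 and Pdia6, and Hsp90b1 has 2 matches. All 8 stretches are shown because they hold the letters. Of their genes, 5 were called higher in RNA and Canx and Dnajc3 were not, and the difference between called and uncalled genes was not tested. In all 7 every AP20187 RNA library lay above every vehicle library. That order was found in 35 of the 61 members and in 21.9% of all tested genes. Each stretch is the gene's strand 5′ to 3′ with the boxes in capitals, and in Calr, Creld2 and the second Hsp90b1 stretch they read in reverse, as CGTGG before ATTGG.
Calr (chr8:84847055-84847113, minus strand): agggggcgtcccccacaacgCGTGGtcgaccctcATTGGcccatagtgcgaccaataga
Canx (chr11:50325780-50325838, minus strand): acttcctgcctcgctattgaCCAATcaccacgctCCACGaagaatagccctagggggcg
Creld2 (chr15:88819500-88819558, plus strand): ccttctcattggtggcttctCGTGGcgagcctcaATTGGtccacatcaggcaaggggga
Dnajc3 (chr14:118937807-118937865, plus strand): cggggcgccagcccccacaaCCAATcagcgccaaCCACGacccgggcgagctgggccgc
Hsp90b1 (chr10:86705618-86705676, minus strand): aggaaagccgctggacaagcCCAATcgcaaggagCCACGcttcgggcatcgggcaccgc
Hsp90b1 (chr10:86705513-86705571, minus strand): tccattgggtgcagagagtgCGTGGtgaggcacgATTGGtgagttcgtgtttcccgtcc
Hspa5 (chr2:34772005-34772063, plus strand): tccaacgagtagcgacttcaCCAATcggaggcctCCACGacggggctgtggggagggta
Pdia6 (chr12:17266471-17266529, plus strand): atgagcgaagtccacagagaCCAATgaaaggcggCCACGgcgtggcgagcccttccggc
Matches lay between -212 and -47 bases from the RefSeq start, where -1 is the base just before it, with the Hspa5 match nearest (-65 to -47). RefSeq starts can differ from the GENCODE coordinates printed for the genes, and the Hspa5 stretch lies inside its GENCODE span. Among members with a window, 5 of 20 called higher in RNA held a match (25% of those genes), against 2 of 33 not called higher (6.06%). The related ER stress response element II is ATTGG, any 1 base and CCACG. It was found in 12 of all windows (0.0365%) and in 8 windows of listed genes (0.11%). Of the members, 1 held it, Dnajb11, between 7 and 17 bases after the start. The core TGACGTGG of the unfolded protein response element was in 222 of all windows (0.676%) and in 69 windows of listed genes (0.948%). It was in 4 members, Copb1, Copb2, Sec23a and Sec24d, none of them called. No match of one pattern overlapped a match of another in the members. A match describes letters and is not evidence of binding.

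The lectin chaperones calreticulin and calnexin hold glycoproteins through their trimmed glucose residue. Calr, the soluble one, was called in RNA and Canx, the membrane-bound one, was not. Calr RNA was at 1256, 1324 and 1525 CPM in the AP20187 libraries, against 934, 953 and 939.8 CPM in the vehicle libraries. The Calr rise was 0.54 ± 0.15 (adjusted p = 0.0319), and it missed the threshold without vehicle library 1 (0.119) or 3 (0.114) or AP20187 library 1 (0.0692) or 3 (0.09). In footprints, Calr had 2444, 1505 and 2636 CPM with AP20187 and 2114, 1535 and 2162 CPM with vehicle. These overlapped, with 0.18 ± 0.30 (adjusted p = 0.835). RNA of Canx stood at 398, 427 and 402 CPM in AP20187 glands and at 343, 347 and 355 CPM in vehicle glands. The Canx groups did not overlap either, yet the difference was 0.23 ± 0.12 (adjusted p = 0.182). Canx footprints were at 517, 478 and 681 CPM in the AP20187 libraries, against 402, 366 and 517 CPM in the vehicle libraries. The footprint difference of Canx was 0.38 ± 0.27 (adjusted p = 0.537).

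Protein disulfide isomerases form and reshuffle disulfide bonds. Pdia4, which encodes ERp72 (chromosome 6, 47796141 to 47813430, minus strand), changed most. In RNA, Pdia4 had 246, 283 and 236 CPM with AP20187 and 79.1, 117 and 62.5 CPM with vehicle. Its RNA rose by 1.56 ± 0.23 (adjusted p = 0.0066). Footprints of Pdia4 stood at 526, 444 and 555 CPM in AP20187 glands and at 208, 248 and 295 CPM in vehicle glands. Without overlap, the footprint difference was 1.02 ± 0.25 (adjusted p = 0.0632; blocked, 0.00561, a call). P4hb, the founding isomerase and a subunit of prolyl 4-hydroxylase (chromosome 11, 120560298 to 120573253, minus strand), had nearly equal AP20187 libraries. P4hb RNA was at 999.95, 1003 and 1012 CPM in the AP20187 libraries, against 530.4, 599 and 449 CPM in the vehicle libraries. Its RNA rose by 0.93 ± 0.15 (adjusted p = 0.00794). In footprints, P4hb had 1142, 886 and 886 CPM with AP20187 and 687, 572 and 566 CPM with vehicle. The difference was 0.68 ± 0.26 (adjusted p = 0.203; blocked, 0.0492, a call).

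Pdia6, an isomerase that partners BiP (chromosome 12, 17266545 to 17284770, plus strand), was also higher in RNA. RNA of Pdia6 stood at 381, 343 and 479 CPM in AP20187 glands and at 162, 269 and 155 CPM in vehicle glands. The rise was 1.04 ± 0.24 (adjusted p = 0.0188; 0.0694 and 0.0784 without vehicle library 1 or 3). Pdia6 footprints were at 762, 405 and 697 CPM in the AP20187 libraries, against 362, 380.1 and 358 CPM in the vehicle libraries. The groups were separate, with 0.76 ± 0.29 (adjusted p = 0.203; blocked, 0.0682). Pdia3, or ERp57, works with the lectin chaperones. In RNA, Pdia3 had 873, 956 and 1061 CPM with AP20187 and 508, 657 and 521 CPM with vehicle. Its RNA rose by 0.78 ± 0.16 (adjusted p = 0.0145; 0.0664 and 0.0699 without vehicle library 1 or 3). Footprints of Pdia3 stood at 1616, 1143 and 1361 CPM in AP20187 glands and at 1022, 826 and 1109 CPM in vehicle glands. The footprint difference was 0.48 ± 0.27 (adjusted p = 0.417). Pdia5, a low-abundance isomerase, was the 1 of 5 not called. Pdia5 RNA was at 15.9, 17.6 and 16.3 CPM in the AP20187 libraries, against 12.6, 15.3 and 15.5 CPM in the vehicle libraries. In footprints, Pdia5 had 19.4, 15.3 and 23.1 CPM with AP20187 and 18.1, 31.1 and 26.2 CPM with vehicle. Its RNA difference was 0.20 ± 0.17 (adjusted p = 0.412) and its footprint difference -0.38 ± 0.39 (adjusted p = 0.708).

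Of the signal recognition particle genes, Srp68, whose product binds the particle's RNA together with SRP72, was called in RNA. RNA of Srp68 stood at 275, 212 and 254 CPM in AP20187 glands and at 172, 172 and 167 CPM in vehicle glands. The rise was 0.54 ± 0.13 (adjusted p = 0.0239), lost without vehicle library 1 (0.0824) or 3 (0.0961) or AP20187 library 1 (0.0842). Srp68 footprints were at 184, 175 and 164 CPM in the AP20187 libraries, against 132, 109.6 and 112 CPM in the vehicle libraries. The footprint groups were separate, at 0.56 ± 0.23 (adjusted p = 0.25). In RNA, Srp72 had 334, 258 and 298 CPM with AP20187 and 257, 256 and 254 CPM with vehicle. Footprints of Srp72 stood at 160.0, 169.9 and 162 CPM in AP20187 glands and at 178, 141 and 132 CPM in vehicle glands. Srp72, separate in RNA and overlapping in footprints, had 0.22 ± 0.14 (adjusted p = 0.265) in RNA and 0.12 ± 0.24 (adjusted p = 0.865) in footprints. In RNA of the smaller subunits AP20187 library 2 was the lowest of its group. Srp19 RNA was at 53.8, 42.4 and 64.2 CPM in the AP20187 libraries, against 35.2, 49.3 and 34.7 CPM in the vehicle libraries. In RNA, Srp14 had 98.3, 83.3 and 133 CPM with AP20187 and 76.4, 100.0 and 78.7 CPM with vehicle. RNA of Srp9 stood at 19.2, 15.6 and 25.5 CPM in AP20187 glands and at 14.4, 20.3 and 14.3 CPM in vehicle glands. All 3 overlapped vehicle, with differences of 0.43, 0.30 and 0.30 and adjusted p of 0.153, 0.28 and 0.374. Srp54a RNA was at 18.2, 11.8 and 16.7 CPM in the AP20187 libraries, against 14.5, 12.2 and 12.2 CPM in the vehicle libraries. Srp54a encodes the GTPase that reads the signal sequence; its footprint values spread widely in the AP20187 group. In footprints, Srp54a had 37.1, 19.9 and 85.0 CPM with AP20187 and 40.0, 27.3 and 29.8 CPM with vehicle. Its differences were 0.26 ± 0.22 in RNA and 0.55 ± 0.48 in footprints (adjusted p = 0.398 and 0.639). Near-identical Srp54b and Srp54c are annotated, so the division of reads among them is uncertain. The other small subunits overlapped in footprints, and Srp9 had few. Footprints of Srp19 stood at 54.4, 51.5 and 141 CPM in AP20187 glands and at 55.3, 55.1 and 35.9 CPM in vehicle glands. Srp14 footprints were at 202, 136 and 296 CPM in the AP20187 libraries, against 201, 170.2 and 263 CPM in the vehicle libraries. In footprints, Srp9 had 2.54, 0.920 and 6.90 CPM with AP20187 and 4.93, 4.91 and 7.59 CPM with vehicle. Their footprint differences were 0.76 ± 0.41 for Srp19, -0.01 ± 0.32 for Srp14 and -0.77 ± 0.85 for Srp9 (adjusted p = 0.4, 0.998 and 0.735).

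The translocon pore gene Sec61a1 (chromosome 6, 88503579 to 88518905, minus strand) was called in RNA and held its call whichever library was left out. RNA of Sec61a1 stood at 464, 433 and 361 CPM in AP20187 glands and at 249, 249 and 218 CPM in vehicle glands. The rise was 0.81 ± 0.15 (adjusted p = 0.00946). Sec61a1 footprints were at 466, 581 and 289 CPM in the AP20187 libraries, against 241, 234 and 161 CPM in the vehicle libraries. With separate groups, footprints differed by 1.07 ± 0.31 (adjusted p = 0.101; blocked, 0.00492, a call), and Sec61a1 was 1 of the members whose footprint estimate exceeded its RNA estimate. Sec61b, a small tail-anchored subunit, had the larger RNA change. In RNA, Sec61b had 93.9, 82.7 and 124 CPM with AP20187 and 34.4, 57.9 and 25.6 CPM with vehicle. The rise was 1.35 ± 0.30 (adjusted p = 0.0166; 0.0587 and 0.0538 without vehicle library 1 or 3). Footprints of Sec61b stood at 47.4, 46.0 and 27.6 CPM in AP20187 glands and at 43.3, 18.5 and 13.1 CPM in vehicle glands. These values overlapped, at 0.71 ± 0.46 (adjusted p = 0.506). The third subunit gene, Sec61g, had 5.45 to 12.5 CPM against 4.43 to 6.55 CPM in RNA and was not called (adjusted p = 0.137).

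Ssr4, a subunit of the TRAP complex that assists the translocon, was the remaining called gene of this class. Ssr4 RNA was at 143, 131 and 190.4 CPM in the AP20187 libraries, against 71.5, 116 and 64.0 CPM in the vehicle libraries. The rise was 0.88 ± 0.25 (adjusted p = 0.0336), and it missed the threshold without vehicle library 1 (0.111) or 3 (0.121) or AP20187 library 1 (0.067) or 3 (0.0652). In footprints, Ssr4 had 360.0, 255 and 392 CPM with AP20187 and 364, 228 and 227 CPM with vehicle. The footprint difference was 0.30 ± 0.29 (adjusted p = 0.681). RNA of Ssr3 stood at 402, 375 and 431 CPM in AP20187 glands and at 301, 324 and 317 CPM in vehicle glands. Ssr3 showed separate groups and a difference of 0.36 ± 0.13 (adjusted p = 0.0674), and Ssr1 one of 0.29 ± 0.12 (adjusted p = 0.1). Ssr3 footprints were at 377, 390.2 and 292 CPM in the AP20187 libraries, against 317, 237 and 240.4 CPM in the vehicle libraries. These overlapped, at 0.42 ± 0.25 (adjusted p = 0.467). Sec62 and Sec63 serve a route for proteins that reach the ER after their synthesis, and neither was called. In RNA, Sec62 had 212, 172 and 221 CPM with AP20187 and 258, 234 and 276 CPM with vehicle. All AP20187 values of Sec62 were below all vehicle values, at -0.34 ± 0.14 (adjusted p = 0.108). Footprints of Sec62 stood at 172, 152 and 148 CPM in AP20187 glands and at 164, 204 and 229.9 CPM in vehicle glands. The footprints overlapped, at -0.34. Sec63 RNA was at 304, 266 and 272 CPM in the AP20187 libraries, against 290.3, 262 and 321 CPM in the vehicle libraries. Sec63 overlapped in RNA at -0.05 ± 0.14 (adjusted p = 0.791). In footprints, Sec63 had 177, 156 and 202 CPM with AP20187 and 116, 106 and 183 CPM with vehicle. Its footprint difference was 0.40 ± 0.28 (adjusted p = 0.538).

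Signal peptidase removes the signal sequence in the ER. RNA of Spcs3 stood at 70.4, 85.4 and 68.0 CPM in AP20187 glands and at 30.9, 52.0 and 32.8 CPM in vehicle glands. Spcs3 rose in RNA by 0.95 ± 0.22 (adjusted p = 0.0187; 0.0666 and 0.0789 without vehicle library 1 or 3). Spcs3 footprints were at 99.1, 86.2 and 78.6 CPM in the AP20187 libraries, against 59.1, 39.3 and 75.7 CPM in the vehicle libraries. The Spcs3 footprint groups were separate, at 0.59 ± 0.29 (adjusted p = 0.35). In RNA, Spcs2 had 161, 158 and 180.4 CPM with AP20187 and 90.4, 129 and 86.1 CPM with vehicle. Spcs2 rose by 0.71 ± 0.17 (adjusted p = 0.0234; 0.0917 and 0.0965 without vehicle library 1 or 3, and 0.0599 without AP20187 library 1). Footprints of Spcs2 stood at 141, 106 and 114 CPM in AP20187 glands and at 92.5, 87.8 and 44.0 CPM in vehicle glands. These groups did not overlap, and the difference was 0.70 ± 0.31 (adjusted p = 0.299). A processed copy, Spcs2-ps, is annotated, so shared reads make Spcs2 levels uncertain. Spcs1 RNA was at 121, 106 and 169.6 CPM in the AP20187 libraries, against 85.8, 116 and 97.2 CPM in the vehicle libraries. In footprints, Spcs1 had 144, 169.9 and 72.7 CPM with AP20187 and 151, 105 and 107 CPM with vehicle. Spcs1 overlapped in both, with an RNA difference of 0.41 ± 0.20 (adjusted p = 0.161).

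Oligosaccharyltransferase transfers the preformed glycan to asparagine, and the 3 of its subunits that are members were all called higher in RNA. Of its other subunits listed by the authors, Stt3a, Magt1 and Krtcap2 were called higher (adjusted p = 0.0153, 0.016 and 0.0183). Stt3b, Dad1 and Tusc3 were not called (adjusted p = 0.4875, 0.551 and 0.566). RNA of Rpn1 stood at 370.4, 355 and 427 CPM in AP20187 glands and at 197, 249 and 182 CPM in vehicle glands. Rpn1 rose by 0.88 ± 0.16 (adjusted p = 0.0102). Rpn1 footprints were at 681, 467 and 466 CPM in the AP20187 libraries, against 464, 317 and 309 CPM in the vehicle libraries. Its footprint groups were separate by a small gap, with 0.57 ± 0.28 (adjusted p = 0.35). In RNA, Ddost had 224, 251 and 249.9 CPM with AP20187 and 137, 156 and 113 CPM with vehicle. Ddost rose by 0.84 ± 0.15 (adjusted p = 0.00913). Footprints of Ddost stood at 355, 317 and 335 CPM in AP20187 glands and at 318, 228 and 319 CPM in vehicle glands. The Ddost footprints overlapped, and the difference was 0.22 ± 0.25 (adjusted p = 0.741). Rpn2 RNA was at 333, 321 and 347 CPM in the AP20187 libraries, against 223, 229 and 194 CPM in the vehicle libraries. Rpn2 rose by 0.63 ± 0.13 (adjusted p = 0.0127; 0.063 without vehicle library 3). In footprints, Rpn2 had 369.5, 408 and 224 CPM with AP20187 and 322, 246 and 200.3 CPM with vehicle. Its footprint difference was 0.38 ± 0.30 (adjusted p = 0.588).

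The COPII coat buds cargo from the ER, and 0 of its 9 genes among the members were called higher. Sec24a, 1 of 4 Sec24 paralogues that select cargo (chromosome 11, 51692264 to 51763634, minus strand), was the only member called lower in RNA. RNA of Sec24a stood at 143, 118 and 107 CPM in AP20187 glands and at 269, 158 and 267 CPM in vehicle glands. The fitted change was -0.91 ± 0.22 (adjusted p = 0.0217), and vehicle library 2 stood nearest the AP20187 libraries. The call was lost without vehicle library 1 (0.0751) or 3 (0.0863). Sec24a footprints were at 136, 125 and 103 CPM in the AP20187 libraries, against 166, 157 and 159 CPM in the vehicle libraries. The groups were separate in footprints too, at -0.40 ± 0.24 (adjusted p = 0.447; blocked, 0.225). Its paralogues were not called: -0.18 for Sec24b, 0.34 for Sec24c and 0.06 for Sec24d in RNA. In RNA, Sec24c had 304, 289 and 242 CPM with AP20187 and 232, 214 and 212 CPM with vehicle. Footprints of Sec24c stood at 249, 280.0 and 164 CPM in AP20187 glands and at 198, 141 and 109 CPM in vehicle glands. Sec24c was the COPII gene with all AP20187 RNA libraries on top (adjusted p = 0.0918).

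The inner-coat paralogues Sec23a and Sec23b had RNA estimates of opposite sign, neither called. Sec23a RNA was at 80.8, 74.2 and 77.0 CPM in the AP20187 libraries, against 97.2, 97.5 and 98.6 CPM in the vehicle libraries. Every AP20187 library was lower for Sec23a, at -0.34 ± 0.11 (adjusted p = 0.0611). In footprints, Sec23a had 83.5, 81.9 and 48.1 CPM with AP20187 and 100.2, 109.6 and 71.7 CPM with vehicle. Its footprint groups overlapped, at -0.39. RNA of Sec23b stood at 227, 159.7 and 219 CPM in AP20187 glands and at 157, 157 and 171 CPM in vehicle glands. Sec23b overlapped vehicle through AP20187 library 2, at 0.32 ± 0.16 (adjusted p = 0.156). Sec23b footprints were at 308, 239 and 216 CPM in the AP20187 libraries, against 181, 221 and 178 CPM in the vehicle libraries. The Sec23b footprints also overlapped, at 0.40. In RNA, Sec23ip had 142, 108 and 131 CPM with AP20187 and 109.9, 95.3 and 105 CPM with vehicle. Footprints of Sec23ip stood at 148, 132 and 107 CPM in AP20187 glands and at 145, 123 and 89.0 CPM in vehicle glands. Sec23ip, which binds Sec23 at ER exit sites, had 0.29 ± 0.14 (adjusted p = 0.156). Sec31a RNA was at 287, 252 and 222 CPM in the AP20187 libraries, against 255, 194 and 223 CPM in the vehicle libraries. In footprints, Sec31a had 411, 444 and 395 CPM with AP20187 and 237, 395 and 343 CPM with vehicle. The outer-coat gene Sec31a overlapped at 0.18 ± 0.16 (adjusted p = 0.414), and its footprint difference was 0.36 ± 0.26 (adjusted p = 0.563). Sec31b was at 7.71 to 11.4 CPM against 7.26 to 8.96 CPM in RNA, and its footprints were too few for the fit.

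The p24 proteins (Tmed genes) cycle between ER and Golgi as cargo receptors. Called higher were Tmed4, Tmed9 and Tmed10, and of these Tmed4 held its call in every fit without a library. RNA of Tmed4 stood at 86.8, 91.9 and 87.2 CPM in AP20187 glands and at 47.7, 57.0 and 41.3 CPM in vehicle glands. Tmed4 rose by 0.87 ± 0.15 (adjusted p = 0.0086). Tmed4 footprints were at 134, 87.1 and 67.2 CPM in the AP20187 libraries, against 134, 73.6 and 56.8 CPM in the vehicle libraries. In footprints the groups overlapped, at 0.14 ± 0.37 (adjusted p = 0.909). In RNA, Tmed9 had 232, 218 and 257 CPM with AP20187 and 143, 173 and 133 CPM with vehicle. Tmed9 rose by 0.66 ± 0.14 (adjusted p = 0.0158; 0.0664 and 0.0737 without vehicle library 1 or 3). Footprints of Tmed9 stood at 414, 253 and 309 CPM in AP20187 glands and at 394, 233 and 285 CPM in vehicle glands. The Tmed9 footprint difference was 0.10 ± 0.29 (adjusted p = 0.916). Tmed10 RNA was at 293, 262 and 293 CPM in the AP20187 libraries, against 221, 216 and 203 CPM in the vehicle libraries. Tmed10 rose by 0.41 ± 0.12 (adjusted p = 0.0416), a call lost in 5 of the 6 fits without a library, at adjusted p between 0.0539 and 0.157.

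Tmed3 and Tmed5 had the highest and the lowest RNA estimates of the class. In RNA, Tmed3 had 181, 176 and 209 CPM with AP20187 and 95.9, 151 and 63.0 CPM with vehicle. The Tmed3 RNA groups were separate, with vehicle library 2 nearest to AP20187, and the difference of 0.87 ± 0.28 missed the threshold (adjusted p = 0.0518). Footprints of Tmed3 stood at 248, 204 and 171 CPM in AP20187 glands and at 181, 153 and 73.8 CPM in vehicle glands. In footprints they overlapped, at 0.62 ± 0.33 (adjusted p = 0.401). Tmed5 RNA was at 299, 195 and 324 CPM in the AP20187 libraries, against 407, 325 and 428 CPM in the vehicle libraries. Tmed5 was lower in every AP20187 library, at -0.50 ± 0.21 (adjusted p = 0.111). In footprints, Tmed5 had 341, 199.7 and 328 CPM with AP20187 and 459.9, 394 and 555 CPM with vehicle. The Tmed5 footprints kept that order, at -0.70 ± 0.28 (adjusted p = 0.244; blocked, 0.0377, a call lower). RNA of Tmed1 stood at 31.0, 34.7 and 38.0 CPM in AP20187 glands and at 28.5, 32.4 and 27.9 CPM in vehicle glands. Tmed1 footprints were at 65.4, 42.6 and 70.9 CPM in the AP20187 libraries, against 78.8, 59.4 and 86.9 CPM in the vehicle libraries. Tmed1 overlapped in RNA at 0.22 ± 0.15 (adjusted p = 0.297), and its footprint estimate was -0.33 ± 0.29 (adjusted p = 0.646). Tmed2 had 70.4 to 80.5 CPM against 56.4 to 67.2 CPM in RNA (adjusted p = 0.118), and Tmed7 and Tmed8 overlapped in RNA.

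The COPI coat returns proteins to the ER, and 1 of its 7 genes among the members was called. This share of 14.3% is near the 12.4% of all tested genes called higher in RNA. Of its other subunits listed by the authors, Cope was called higher (adjusted p = 0.0119) and Arcn1 was not called (adjusted p = 0.542). In RNA, Copg1 had 289, 254 and 288 CPM with AP20187 and 223, 202 and 194 CPM with vehicle. Copg1 rose by 0.43 ± 0.13 (adjusted p = 0.0409), a call lost in 5 of the 6 fits without a library, at adjusted p between 0.0633 and 0.156. Footprints of Copg1 stood at 324, 391 and 206 CPM in AP20187 glands and at 259.5, 328 and 146 CPM in vehicle glands. Its footprints overlapped, at 0.33 ± 0.34 (adjusted p = 0.713). Copg2 RNA was at 72.6, 87.6 and 77.9 CPM in the AP20187 libraries, against 80.9, 93.8 and 79.1 CPM in the vehicle libraries. The paralogue Copg2 had -0.09 ± 0.14 (adjusted p = 0.641). In footprints, Copg2 had 58.5, 90.8 and 46.2 CPM with AP20187 and 69.0, 88.9 and 73.8 CPM with vehicle. It overlapped there too, at -0.25. RNA of Copa stood at 603, 485 and 534 CPM in AP20187 glands and at 471, 437 and 434 CPM in vehicle glands. Copa, the largest COPI subunit, had separate groups and 0.27 ± 0.14 (adjusted p = 0.179). Copa footprints were at 522, 577 and 657 CPM in the AP20187 libraries, against 310.4, 511 and 495 CPM in the vehicle libraries. The footprints of Copa were separate as well, at 0.42 ± 0.28 (adjusted p = 0.515).

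The zeta and beta subunits overlapped in RNA. In RNA, Copz1 had 192, 175 and 229.8 CPM with AP20187 and 154, 184 and 159.5 CPM with vehicle. Footprints of Copz1 stood at 194, 143 and 231 CPM in AP20187 glands and at 182, 176 and 179 CPM in vehicle glands. Copz1 had 0.26 ± 0.15 (adjusted p = 0.203) in RNA and 0.08 in footprints. Copz2 RNA was at 17.2, 21.8 and 17.2 CPM in the AP20187 libraries, against 15.8, 19.6 and 16.8 CPM in the vehicle libraries. In footprints, Copz2 had 21.7, 23.3 and 37.2 CPM with AP20187 and 18.6, 37.6 and 20.9 CPM with vehicle. Copz2, the rarer paralogue by reads, had 0.11 ± 0.18 (adjusted p = 0.692) in RNA and 0.09 in footprints. RNA of Copb2 stood at 448, 345 and 495 CPM in AP20187 glands and at 378, 421 and 408 CPM in vehicle glands. Copb2 footprints were at 571, 515 and 497 CPM in the AP20187 libraries, against 381, 462 and 495 CPM in the vehicle libraries. Copb2 footprints were separate though its RNA was not, at 0.24 ± 0.24 (adjusted p = 0.702). Copb1 had a difference of 0.00 in RNA (adjusted p = 0.99). In RNA, Ssrp1 had 219, 269 and 263 CPM with AP20187 and 189, 227 and 177 CPM with vehicle. Footprints of Ssrp1 stood at 185, 303 and 191 CPM in AP20187 glands and at 159, 298 and 111 CPM in vehicle glands. Ssrp1, outside the pathway, overlapped in both, with 0.34 ± 0.15 in RNA (adjusted p = 0.122).

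Footprints of 59 members passed the filter on low counts, and Tmed2 and Sec31b did not. Of the 59, 2 were called higher, Sdf2l1 and Creld2 (3.39%), and 0 lower, against 0.937% and 1.6% of all 7041 genes tested. At an unadjusted p under 0.05 there were 13 members, against 16.5% of all tested genes, and DESeq2 called 5 members higher and 0 lower, against 3.03% and 4.48% of genes (7.5% in either direction). The median footprint change of the members was 0.36, against 0.03 for all tested genes. For 15 members every AP20187 footprint library lay above every vehicle library (11.4% of all tested genes), and for 2, Sec24a and Tmed5, every one lay below (11.8%). Class medians were 0.82 for lumenal chaperones, 0.68 for disulfide isomerases, 0.59 for signal peptidase, 0.41 for translocon and TRAP, 0.38 for oligosaccharyltransferase, 0.34 for the signal recognition particle, 0.28 for lectin chaperones, 0.18 for COPII, 0.12 for p24 receptors and 0.09 for COPI. With the replicate number as a block, 8 members were called higher (Sdf2l1, Creld2, Hyou1, Sec61a1, Pdia4, Manf, Hsp90b1 and P4hb) and 1, Tmed5, lower, against 5.01% and 5.14% of all tested genes. The block assumes a pairing that was inferred from these libraries and is not in the labels.

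**Figure D3:**
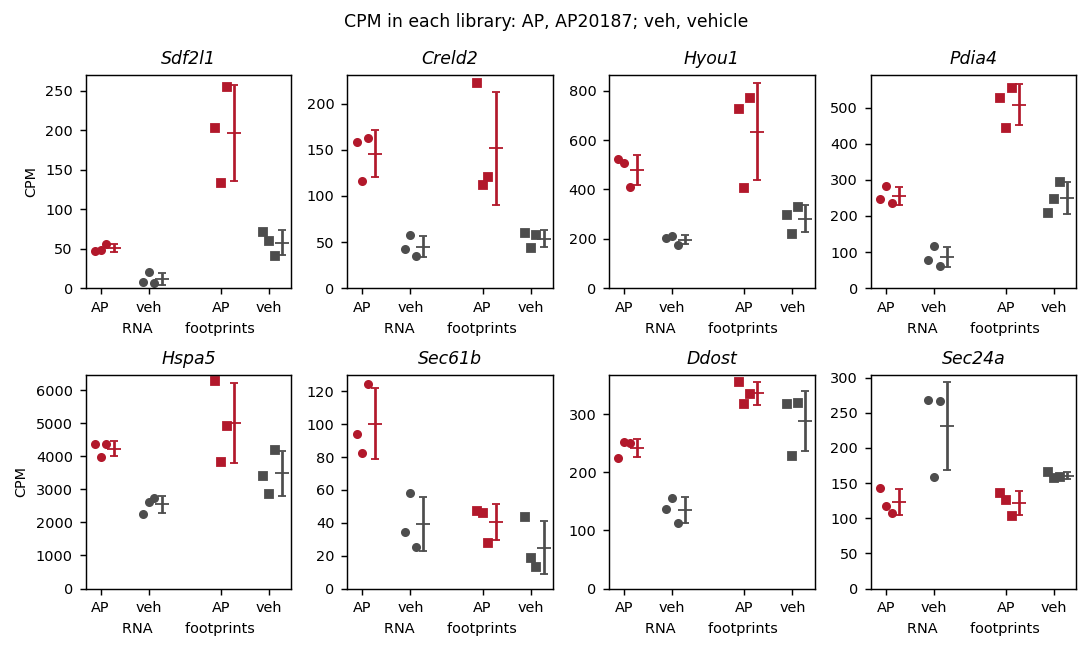
CPM (y axis, from 0) is plotted for 8 members in each RNA library (circles) and footprint library (squares), AP20187 (AP, red) left of vehicle (veh, grey); the cross bar is the mean and the error bar 1 SD over 3 libraries. RNA groups are separate in all 8 panels, while footprint groups overlap for Hspa5, Sec61b and Ddost.

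Translational efficiency is the footprint level over the RNA level, and its change was the assay-by-treatment term of a fit over all 12 libraries. With edgeR, 0 of 61 members were called, as were 0% of all 7315 genes tested, and with DESeq2 0 members and 0.137% of all genes tested. Of the members, 1 had an unadjusted p under 0.05, against 4.78% of all genes. Estimates were positive for 17 of 61 members, against 42.4% of all tested genes, and the members' median was -0.21, against -0.08. The 3 smallest p belonged to Ddost (-0.67 ± 0.28, adjusted p = 0.988), Tmed4 (-0.78 ± 0.43, adjusted p = 0.988) and Tmed9 (-0.61 ± 0.34, adjusted p = 0.988), each higher in RNA with overlapping footprint groups. Class medians ran between -0.37 for signal peptidase and 0.13 for COPII.

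Per kilobase of exon, Hspa5 had the highest RNA level of the 61 members in both groups, at 1127 ± 60.6 CPM per kb in AP20187 glands and 678 ± 66.5 in vehicle glands (SD, n = 3 each). Hsp90b1, at 806 ± 117 against 371 ± 86.2, and Calr, at 627 ± 64.1 against 431 ± 4.49, followed, and their ranges of 1 SD overlapped in both groups. Pdia3 (348 ± 34.1 against 203 ± 29.7) and P4hb (351 ± 2.22 against 184 ± 26.1) came next and did not differ beyond their spread. Sdf2l1, with the largest fold change, was 56th of 61 in vehicle glands, at 45.7 ± 4.64 against 10.3 ± 7.07. Per kilobase of coding sequence, footprints of Hspa5 were at 2545 ± 619 against 1770.2 ± 343 CPM per kb, and those of Calr at 1759 ± 485 against 1552 ± 279.

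**Figure D4:**
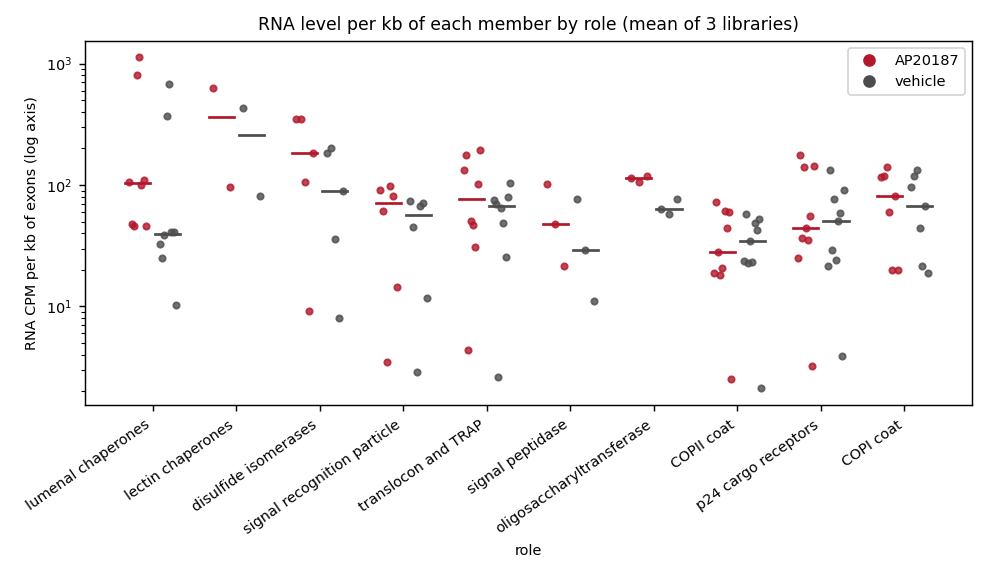
The y axis (log scale) gives the mean RNA CPM per kb of exons for each member by role, AP20187 (red) left of vehicle (grey), and the short lines are class medians. Hspa5, at 1127 CPM per kb with AP20187 and 678 CPM per kb with vehicle, is the top point, and the lumenal chaperone median is 104 against 39.6 CPM per kb.

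The ratio of footprints to RNA differed widely among the 59 members that passed both filters. Expressed as log2 of footprint CPM over RNA CPM minus the value of the median gene, and averaged over all pairs of libraries, it was highest for Sdf2l1 (2.30, the 98.3rd percentile of genes), Manf (1.70, 95.3rd), Ssr4 (1.51, 93.4th), Srp54a (1.45, 92.8th) and Pdia4 (1.37, 91.7th). It was lowest for Tmed10 (-3.45, 1.3rd percentile), Srp9 (-1.93, 5.5th), Tmed8 (-1.02, 17th) and Sec61b (-0.93, 19th). CPM was not scaled to length in this ratio, so ranks across genes also depend on the coding part of the exons. Tmed8, with 978 coding of 7409 exon bases, had 11.71 footprint CPM per coding kb in vehicle glands. Its RNA there was at 3.94 CPM per kb of exon. Tmed10 stands out by level: its RNA ranked 6th per kilobase in vehicle glands and its footprints 53rd. Tmed10 footprints were at 26.2, 23.3 and 28.1 CPM in the AP20187 libraries, against 16.4, 9.27 and 29.3 CPM in the vehicle libraries. The annotation holds a processed copy, Tmed10-ps, and the counting of reads that fit several places is not given in the sources used here, so this low ratio is uncertain. Tmed2 was lower still in reads, with 6, 3 and 10 footprints in AP20187 libraries and 0, 3 and 0 in vehicle libraries, beside 16425, 8834 and 7490 RNA reads against 14040, 8731 and 5727.

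**Figure D5:**
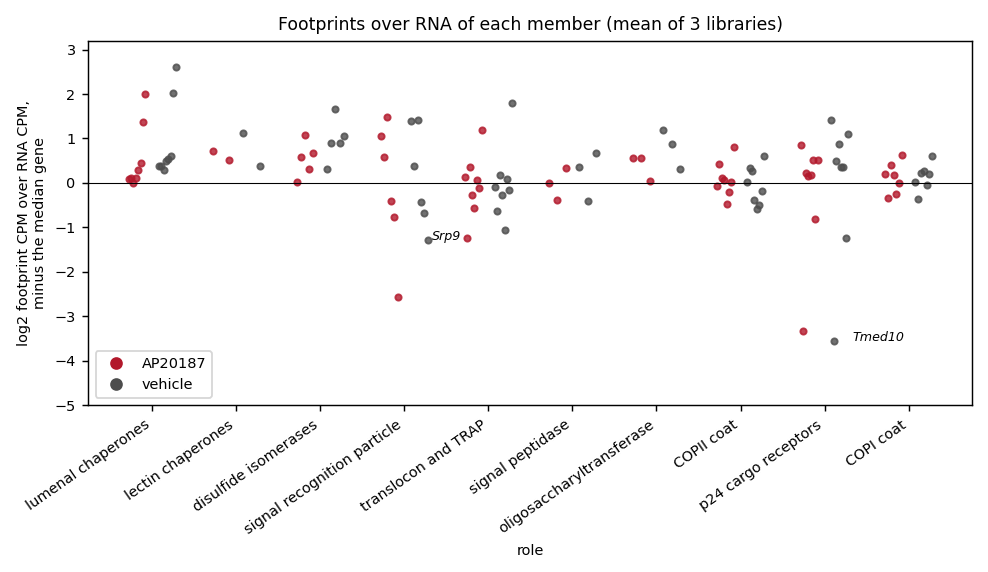
The y axis gives log2 of footprint CPM over RNA CPM minus the value of the median gene, as the mean of 3 library pairs, for each member by role, AP20187 (red) left of vehicle (grey). Values are not scaled to length. Tmed10, averaging -3.45 over both groups, lies far below the other p24 genes, and the 2 top lumenal points are Sdf2l1 and Manf.

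Other genes of the pathway were counted in 4 lists, with RNA log2 fold changes, SE and adjusted p in brackets for the 6 smallest p of each. Of 27 symbols of the unfolded protein response and ER-associated degradation looked for, 13 were listed by the authors. The sensors and transcription factors Atf6, Ern1, Eif2ak3, Xbp1, Atf4 and Ddit3 were not among them, so the counts do not cover these. Of the 13, 2 were called higher (near the 12.4% of all tested genes) and 0 lower (13.9% of all) in RNA, with median 0.27. They were Herpud1 (0.81 ± 0.24, 0.0396) and Sel1l (0.74 ± 0.22, 0.0399), both parts of the degradation machinery, and next came Vimp (0.55 ± 0.19, 0.0668), Nploc4 (0.44 ± 0.16, 0.0726), Os9 (0.27 ± 0.12, 0.122) and Vcp (0.27 ± 0.12, 0.137), not called. Of 16 listed genes of targeting, translocation and glycosylation, 8 were higher and 0 lower (median 0.50), against 12.4% and 13.9% of all tested genes. The smallest p belonged to the translocating-chain protein gene Tram1 (1.35 ± 0.21, 0.00703), the signal recognition particle receptor subunit Srprb (0.85 ± 0.13, 0.00703), the glucosidase Mogs (0.82 ± 0.13, 0.00755), the catalytic oligosaccharyltransferase subunit Stt3a (0.66 ± 0.14, 0.0153), Magt1 (0.79 ± 0.17, 0.016) and the glucosidase II subunit Prkcsh (0.56 ± 0.13, 0.0175).

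Of 27 other ER folding enzymes, 9 were higher and 4 lower (median 0.17), against 12.4% and 13.9% of all tested genes, so the share lower is near that of all genes. Higher were the proline isomerase Fkbp11 (1.55 ± 0.28, 0.00971), the glycoprotein folding sensor Uggt1 (0.67 ± 0.13, 0.0104), the sulfhydryl oxidases Qsox2 (0.82 ± 0.16, 0.0116) and Qsox1 (0.78 ± 0.15, 0.0118), and the isomerase Txndc5 (0.62 ± 0.13, 0.0138). Lower were Fkbp9 (-1.09 ± 0.20, 0.0104) and, named after their values were seen, Fkbp10 (-0.86 ± 0.21, 0.021), which assists collagen folding, Uggt2 (-1.20 ± 0.30, 0.0234) and Tmx3 (-0.59 ± 0.15, 0.0249). The fibroblast markers above were lower in the same libraries, and their part in these 4 values was not tested. Fkbp9 was also the 1 gene of the 4 lists called lower in footprints, and 0 were called higher. Among all genes tested in footprints, 1.6% were called lower and 0.937% higher. Of 26 coat and cargo genes, 8 were higher and 1 lower (median 0.33), against 12.4% and 13.9% of all tested genes. The cargo receptor pair Lman1 (0.97 ± 0.17, 0.00854) and Mcfd2 (1.28 ± 0.16, 0.0059) rose together, as did Preb, the exchange factor that starts COPII assembly (0.87 ± 0.14, 0.00766), the COPI subunit Cope (0.69 ± 0.14, 0.0119) and the cargo receptor Surf4 (0.64 ± 0.14, 0.0142), whereas the small GTPase Arf4 was lower (-0.64 ± 0.18, 0.0331).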

How the data were processed

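RNA and ribosome footprints were measured in mammary epithelial cell preparations, with 3 libraries per assay and treatment. The authors deposited raw counts per gene symbol for 7318 genes in 12 columns, with no normalization in the file. The tools named in the submitters' processing notes are HTSeq, Bowtie2, STAR, cutadapt and bcl2fastq 1.8.3, and the build is mm10. Tool settings, the strand option, the region counted for footprints and the choice of the 7318 genes are not stated there, so totals cover the listed genes only.

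From these counts, genes passing filterByExpr went into edgeR 4.0.16 (R 4.3.3; quasi-likelihood F-test) with TMM scaling, treatment as the only term and 2-sided p-values adjusted by Benjamini-Hochberg over all genes tested. Changes are relative to the other genes. RNA and footprints were fitted apart, and translational efficiency was tested as an interaction over 12 libraries. SE was derived from the F statistic, and the steps were tested on simulated data. Alternatives were DESeq2 1.42.0, other scaling, no filter, a replicate block and each library left out.

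Replicate numbers in the titles were checked for pairing by correlating deviations from group means. Same-numbered AP20187 and vehicle footprint libraries correlated at 0.197, 0.269 and 0.38. The labels do not say whether equal numbers across treatments share a day or litter. The footprint pairing was therefore inferred from the libraries being tested, and calls with the block are conditional on it. Blocked values are given beside footprint results they change. RNA and footprints of the same number and treatment came from the same cell pellet, per the labels' protocols. They correlated at 0.45, 0.519 and 0.37 with AP20187 and at 0.053, 0.11 and 0.344 with vehicle. Vehicle footprint library 1 correlated better with a vehicle RNA library of another number (0.155) than with that of its own number. A pellet block was fitted for translational efficiency only, where the main fit called 0 genes, and it also called 0.

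Role classes were set by symbol. In each, up to 4 members with the smallest RNA p and up to 2 more with the smallest footprint p were named, with every called decrease, the 3 smallest p of translational efficiency and Hspa5, which gave 51 members. Members and lists were chosen with earlier results of these data known. Whether each library is 1 mouse or a pool is not in the labels, so p-values reflect only how far these samples scatter, in part perhaps technically, and floors cover counting error only. Coordinates are those of GENCODE M21 on mm10 (GRCm38), promoter sequences those of RefSeq on GRCm38.p6, and members were matched by symbol.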

Additional observations from a re-analysis of the deposited data

How the results depend on the processing

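The 25 RNA calls higher, the 1 lower and the 2 footprint calls kept their direction under every alternative, while uncalled estimates could turn, such as Copb2 RNA. In RNA, the number of members called higher ran between 12 and 29 when a library was left out, lowest without vehicle library 3 (12, with 3.38% of all tested genes higher) or 1 (13, with 4.2%) and highest without AP20187 library 2 (14.3%), and the number called lower ran between 0 and 1. By role, calls higher ran between 2 and 4 for disulfide isomerases, 0 and 1 for lectin chaperones, 1 and 3 for p24 receptors, 0 and 2 for signal peptidase, 0 and 1 for the signal recognition particle, 1 and 5 for translocon and TRAP and 0 and 1 for COPI, and calls lower between 0 and 1 for COPII. RNA calls of 12 members held whichever library was left out: Sdf2l1, Creld2, Manf, Hyou1, Hsp90b1, Dnajb11, Pdia4, P4hb, Ddost, Rpn1, Sec61a1 and Tmed4. The share of all tested genes whose calls held in this way was not counted. Hsp90b1 was at the threshold without vehicle library 3 (adjusted p = 0.05 after rounding). Footprint calls higher ran between 0 and 3, with 0 without vehicle library 1, 2 or 3 or AP20187 library 1. In these 4 fits 0%, 0%, 0.0425% and 0.0282% of all tested genes were called higher. Without AP20187 library 2 or 3, where 3 members were called, the shares were 0.886% and 1.18%. DESeq2 called 27 members higher and 2 lower in RNA, against 16.7% and 17.4% of all genes (2 lower in COPII, adding Sec23a) and 5 higher in footprints, adding Hyou1, Pdia4 and Sec61a1. In RNA the same-number correlations were 0.231, -0.045 and -0.068, and only the first exceeded those with other numbers. RNA totals did go by number, with AP20187 and vehicle library 1 the deepest, at 237015762 and 251874393 counts. Whether the RNA libraries pair by number was thus not settled. The RNA fit with the replicate block gave 19 members higher and 2 lower, against 8.48% and 9.04% of all genes. In that fit 0 COPI genes, 1 signal peptidase gene and 1 translocon gene were higher. In footprints, where the pairing was inferred from the libraries themselves, the replicate block gave 8 higher and 1 lower, against 5.01% and 5.14% of all genes. RLE scaling, upper-quartile scaling and no filter left each of these counts within 1.5 times. No alternative called a member in translational efficiency. Footprint library totals were as low as 1772969 counts over the listed genes.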

Other observations

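The lumenal chaperone median, as log2 CPM minus the vehicle mean, was 1.03, 0.23 and 1.12 in the AP20187 footprint libraries and 0.08, -0.28 and 0.23 in the vehicle footprint libraries, so AP20187 footprint library 2 stood apart from the others of its group. In the RNA libraries of the same numbers it was 1.24, 1.05 and 1.22 with AP20187 and -0.15, 0.25 and -0.14 with vehicle. RNA vehicle library 2 was the highest vehicle library for the median of all members (0.09, against -0.04 and -0.07 in the other vehicle libraries). It was also the highest for every role except COPII and lectin chaperones. Examples are the disulfide isomerase median (0.24, against -0.13 and -0.22) and the signal peptidase median (0.37, against -0.21 and -0.19).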
